A study of Homo sapiens with 6 samples.

Results

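The genes described here are 9 tumour and signalling genes of the long arm of chromosome 17, namely PPM1D, NF1, TRIM37, RPS6KB1, STAT3, STAT5B, TLK2, CDK12 and BCAS3. They were taken by gene symbol from a table of 31785 rows, and all 9 were found there and passed the filter on low values that 13558 rows passed. They had been picked with the comparison between knockdown and wild-type libraries in view, because this chromosome arm was lower in the knockdown. Their differences between the groups are therefore given as a description, without a test. The libraries came from D283 Med, a paediatric medulloblastoma line, with 3 libraries of Musashi-1 knockdown cells (KD) and 3 of wild-type cells (WT), all grown in DMEM/F12 with 10% serum. The column headings name KD but not WT, so the WT columns were assigned by elimination. The genotype labels read WT and MS1 Knockdown. The sources used here do not give the knockdown method, any control construct in WT cells, or whether KD cells were a clone or a pool. Nor do they say that replicate libraries were grown as separate cultures, so p-values measure only library-to-library spread, which may be technical. The other genes of the same arm and of the rest of the genome serve as the background.

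Medulloblastoma is a tumour of the cerebellum, and gain of the long arm of chromosome 17, often as an isochromosome that carries this arm on both sides and lacks most of the short arm, is the commonest large chromosome change in its Groups 3 and 4. Genes on the arm with roles in cancer act in different ways. PPM1D is a phosphatase that switches off the DNA damage response, RPS6KB1 is a kinase that passes growth signals from mTORC1 to the ribosome, STAT3 and STAT5B are transcription factors activated by cytokine receptors, and NF1 is a tumour suppressor that turns RAS off. Musashi-1 binds mRNAs in neural stem and progenitor cells and regulates their translation.

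Depth was 18895997 to 24442276 reads per KD library and 17299671 to 38790342 per WT library, and each of the 9 genes had between 185 and 9840 reads per library. Levels are normalised read counts, which are reads divided by a size factor per library, and differences are KD minus WT on the deposited log2-like scale, which understates the difference of weakly expressed genes. MSI1, the target of the knockdown, had 1385.3, 1197.2 and 1281.2 normalised reads in KD libraries 1, 2 and 3, against 1585.7, 1572.3 and 1377.8 in WT libraries 1, 2 and 3. KD 1 lay above WT 3, so the groups overlapped. The mean in KD was 85.2% of that in WT, and by limma the difference of −0.21 (SE 0.12) was not called, with an adjusted p of 0.304. This measurement of MSI1 mRNA does not separate the groups, so KD stands for the libraries labelled as knockdown throughout. Of 9 listed medulloblastoma markers that were measured, 7 passed the filter, with OTX2, a homeobox factor of this tumour, at 30373 ± 3590 normalised reads in KD and 23664 ± 3341 in WT (SD, n = 3 each). NPR3, a natriuretic peptide receptor, fell to 7759 ± 1682 in KD, against 13052 ± 1708 in WT (SD, n = 3 each; limma, adjusted p = 0.0437). The marker list had no call lower without KD 1, 2 or 3, without WT 1 or WT 2 or in a fit blocked by replicate number, and 2 without WT 3. EOMES and LMX1A lay below the filter. MYC, an oncogene of Group 3, averaged 23088 ± 1202 in KD and 16640 ± 2263 in WT (SD, n = 3 each), with groups that did not overlap, and was not called (limma, adjusted p = 0.0976). Of 7 neural markers, SOX2, DCX, TUBB3 and STMN2 lay below the filter. DCX, a microtubule protein of young neurons, nevertheless had 52.6, 55.3 and 60.1 normalised reads in KD 1, 2 and 3, against 2.93, 15.1 and 1.54 in WT 1, 2 and 3, and the groups did not overlap. MAP2, a neuronal microtubule protein, had 54.6, 163 and 40.8 normalised reads in KD 1, 2 and 3, against 29.3, 25.2 and 13.8 in WT 1, 2 and 3. Its groups did not overlap either, and it was not called (limma, adjusted p = 0.121). The rest of the list did not share this pattern. TUBB3 averaged 9.94 ± 5.70 normalised reads in KD and 22.9 ± 16.4 in WT (SD, n = 3 each). STMN2 averaged 5.64 ± 3.98 in KD and 7.34 ± 6.71 in WT (SD, n = 3 each). NES held 107.8% of WT and NEUROD1 127.2%. The groups overlapped in TUBB3, STMN2, NES, NEUROD1 and SOX2. The neural list had 1 call higher with no filter on low values and none in the other 12 alternatives. Of the markers of other cell types, none of the 3 in the table for blood and microglia, 3 of 6 for fibroblasts, 2 of 5 for epithelium and 2 of 5 for endothelium passed it. None of those that passed was called. The summed level of the epithelial markers, most of it KRT8, was 6075 to 9617 normalised reads in KD and 4480 to 12073 in WT. That of the fibroblast markers was 716 to 1062 in KD and 993 to 1304 in WT, of the endothelial markers 162 to 314 in KD and 162 to 251 in WT, and of the blood markers 0 to 8.58 in KD and 5.86 to 15.4 in WT. PTPRC, CD68 and PECAM1 were listed at 0 in KD. Genes of general transcription were at or near 0 too, with SUPT4H1, an elongation factor subunit, at 0 to 3 reads per library and TAF15, an RNA-binding protein, at 0 to 2, so a listed 0 need not mean that a gene was silent. The part of these markers in the results was not tested.

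All 9 genes were lower in KD on average, at 56.0% to 84.9% of the WT level, with a median of 67.8%. The median difference was −0.53. In 8 of the 9 every KD library lay below every WT library, a pattern that 13.6% of all tested genes and 51.1% of the arm's other tested genes showed. STAT5B was the exception, and in all 79 of the 81 pairs of a KD and a WT library had the lower value in KD. Of all tested genes 4.1% were called in either direction and 2.32% lower in KD (limma, adjusted p under 0.05), and 5 of the 9 were among them, namely NF1, STAT3, TRIM37, RPS6KB1 and BCAS3. Because this comparison chose the genes, nothing is read from that count. It was 0, 1 and 0 without KD 1, KD 2 and KD 3, 2 without WT 2, and 3 in a fit blocked by replicate number. In bulk libraries, fewer cells of a type and less RNA per cell cannot be told apart.

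**Figure D1:**
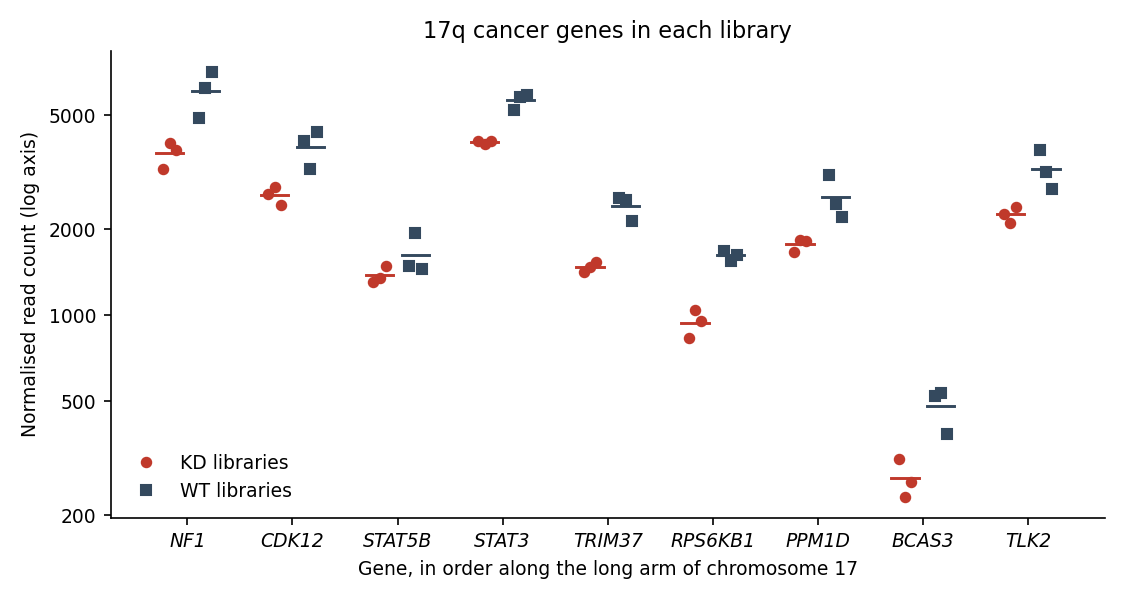
Normalised read count (log axis) of each gene in the 3 KD libraries (red circles) and the 3 WT libraries (dark squares), with bars at the group means and genes in order along the arm. KD and WT libraries are separate in every gene but STAT5B.

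The kinases were led by RPS6KB1, the S6 kinase that phosphorylates ribosomal protein S6 downstream of mTORC1. It lies on the plus strand of chromosome 17 at 59893046 to 59950564 (GRCh38). RPS6KB1 had 832, 1045 and 952 normalised reads in KD 1, 2 and 3, against 1684, 1550 and 1623 in WT 1, 2 and 3. The highest KD library stayed well under the lowest WT library, and the WT libraries lay close together. The means were 943 ± 107 in KD and 1619 ± 67.2 in WT (SD, n = 3 each), or 58.2% of WT, and the difference was −0.72 (SE 0.12), the lowest of the 9.

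CDK12, a cyclin-dependent kinase that phosphorylates RNA polymerase II during elongation and maintains expression of long DNA repair genes, lies on the plus strand at 39461511 to 39564907. It had 2651, 2812 and 2429 normalised reads in KD 1, 2 and 3, against 4057, 3233 and 4357 in WT 1, 2 and 3. WT 2 came nearest to the KD libraries, and the groups did not overlap. KD held 67.8% of WT (2631 ± 192 in KD and 3883 ± 582 in WT, SD, n = 3 each; difference −0.53, SE 0.13). TLK2, a nuclear kinase that acts on the histone chaperone ASF1 during DNA replication, lies on the plus strand at 62458658 to 62615481. It had 2260, 2104 and 2391 normalised reads in KD 1, 2 and 3, against 3783, 3178 and 2766 in WT 1, 2 and 3. WT 3 was the lowest WT library and still above KD 3, the highest KD library. KD held 69.4% of WT (2251 ± 144 in KD and 3242 ± 512 in WT, SD, n = 3 each; difference −0.50, SE 0.13). The annotation holds 2 pseudogenes of TLK2, with at most 244.5 normalised reads together in a library, so a share of its reads may have been assigned to either.

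PPM1D, the phosphatase also called WIP1, dephosphorylates checkpoint kinases of the DNA damage response, and is amplified or truncated in several tumours, medulloblastoma among them. It lies on the plus strand at 60600183 to 60666280. PPM1D had 1668, 1837 and 1812 normalised reads in KD 1, 2 and 3, against 3085, 2455 and 2201 in WT 1, 2 and 3. The KD libraries were close to each other, while WT 1 stood above WT 2 and WT 3. KD held 68.7% of WT (1772 ± 91.6 in KD and 2580 ± 455 in WT, SD, n = 3 each; difference −0.50, SE 0.14).

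TRIM37, a ubiquitin ligase that limits centrosome assembly outside the centrosome, lies on the minus strand at 58982638 to 59106921. It had 1419, 1476 and 1540 normalised reads in KD 1, 2 and 3, against 2570, 2521 and 2144 in WT 1, 2 and 3. All KD libraries lay in a narrow band below the WT libraries. The means were 1478 ± 60.6 in KD and 2412 ± 233 in WT (SD, n = 3 each), or 61.3% of WT (difference −0.66, SE 0.11). TRIM37 overlaps PPM1E, a phosphatase on the opposite strand, which averaged 871 ± 56.9 normalised reads in KD and 737 ± 158 in WT (SD, n = 3 each). Whether counting used strand is unstated, so reads of the shared stretch cannot be told apart.

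NF1, neurofibromin, stimulates GTP hydrolysis by RAS and is lost in neurofibromatosis type 1. It lies nearest to the centromere among the 9, on the plus strand at 31094927 to 31382116. NF1 had 3257, 3994 and 3778 normalised reads in KD 1, 2 and 3, against 4874, 6206 and 7082 in WT 1, 2 and 3. Spread was wide in WT, with WT 1 the lowest, and KD 2 as the highest KD library stayed below it. KD held 60.7% of WT (3676 ± 379 in KD and 6054 ± 1112 in WT, SD, n = 3 each; difference −0.69, SE 0.15). Of 12 annotated NF1 pseudogenes 3 were in the table, with at most 1.26 normalised reads together in a library.

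The STAT genes lie close together, with STAT5A between STAT5B and STAT3. STAT3, which carries signals of the interleukin-6 family, is on the minus strand at 42313324 to 42388568. It had 4053, 3976 and 4072 normalised reads in KD 1, 2 and 3, against 5218, 5799 and 5891 in WT 1, 2 and 3. The KD libraries were almost equal and all below WT. KD held 71.6% of WT (4034 ± 50.7 in KD and 5636 ± 365 in WT, SD, n = 3 each; difference −0.47, SE 0.11). STAT5B, which carries growth hormone and prolactin signals, is on the minus strand at 42199168 to 42276707. STAT5B had 1302, 1353 and 1493 normalised reads in KD 1, 2 and 3, against 1485, 1943 and 1456 in WT 1, 2 and 3. KD 3 lay above WT 1 and WT 3, and only WT 2 stood clear of the KD libraries. KD held 84.9% of WT (1383 ± 98.5 in KD and 1628 ± 273 in WT, SD, n = 3 each; difference −0.21, SE 0.13). STAT5A, a close paralog, averaged 1.01 normalised reads in KD and 3.17 in WT, and was below the filter. Reads shared by both may have been left out or assigned to either.

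BCAS3, a cytoskeletal and autophagy-linked protein first found amplified in breast cancer, had the lowest level of the 9 and the lowest share of WT. It is the longest of the genes, at 60677453 to 61392838 on the plus strand. BCAS3 had 315, 233 and 262 normalised reads in KD 1, 2 and 3, against 524, 534 and 386 in WT 1, 2 and 3. WT 3 was the WT library nearest to KD, and the groups did not overlap. KD held 56.0% of WT (270 ± 41.6 in KD and 481 ± 82.8 in WT, SD, n = 3 each; difference −0.65, SE 0.15).

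The promoters of the genes with the lowest and the highest difference on the deposited scale are shown because they mark the ends of that range. By share of WT the lowest gene was BCAS3, at 56.0%, against 58.2% for RPS6KB1. Sequences are from RefSeq on GRCh38.p14, from 250 bases before to 50 after the gene start, read 5′ to 3′ on the strand of the gene, and capitals mark the motifs found on either strand. That of RPS6KB1 is chr17:59892871-59893170 on the plus strand, and its capitals mark 3 copies of TGCGCA, the core of the NRF1 site, and 1 match to the STAT consensus TTCNNNGAA. That of STAT5B is chr17:42276342-42276641 on the minus strand, and its capitals mark 3 GC boxes, GGGCGG.
RPS6KB1: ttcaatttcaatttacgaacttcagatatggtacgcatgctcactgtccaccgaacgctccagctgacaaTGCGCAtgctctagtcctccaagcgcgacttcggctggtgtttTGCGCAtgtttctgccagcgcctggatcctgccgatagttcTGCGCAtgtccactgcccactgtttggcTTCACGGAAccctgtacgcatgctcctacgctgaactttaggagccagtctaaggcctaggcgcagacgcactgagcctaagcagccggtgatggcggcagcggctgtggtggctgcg
STAT5B: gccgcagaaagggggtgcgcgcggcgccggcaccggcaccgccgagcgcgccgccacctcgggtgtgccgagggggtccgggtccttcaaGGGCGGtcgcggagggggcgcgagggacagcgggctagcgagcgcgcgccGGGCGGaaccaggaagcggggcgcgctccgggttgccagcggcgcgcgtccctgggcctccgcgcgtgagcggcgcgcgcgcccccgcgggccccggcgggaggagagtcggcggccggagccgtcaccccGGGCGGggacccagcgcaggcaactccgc

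The 9 promoters shared no searched motif, with the most upstream RefSeq start taken for each gene. GC boxes were in 5 of the 9, against 71.3% of the promoters of tested genes of the arm and 44.5% of all 27305 promoters. The CCAAT box (CCAAT) was in 3, against 38.0% on the arm and 35.7% of all promoters, and the core TGCGCA, searched after the promoters had been read, was in PPM1D, RPS6KB1 and TRIM37, against 12.8% on the arm and 8.45% of all. The ETS core CCGGAA was in NF1 and STAT3, against 27.7% on the arm and 17.6% of all, and the STAT consensus in RPS6KB1 alone, against 3.46% on the arm and 7.88% of all. The E-box CACGTG and the TATA box TATAAA were in none of the 9, against 10.4% and 6.38% on the arm. CpG pairs ranged from 5 in TLK2 to 55 in STAT5B, with a median of 23 over the 9 and 26.5 over tested genes of the arm. TLK2 has 6 starts in the table and its most upstream window need not be the one used in these cells. That window, at 62477561 to 62477860, lies inside the gene as placed above, downstream of its GENCODE start at 62458658. The CpG count and the absence of motifs in TLK2 describe that window only.

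The whole arm was lower in KD. Of its 578 tested genes 514 (88.9%) had a negative difference, the median was −0.33 and the median gene held 75.6% of its WT level. Calls numbered 89 lower and 0 higher, or 15.4% of the arm's tested genes, against 2.32% lower and 1.78% higher among all tested genes. Without the 9 genes the arm's median was −0.32 and 84 genes of 569 were called lower. The count of 89, with the 9 included, was 5, 15 and 5 without KD 1, KD 2 and KD 3, 31 without WT 2, and 31 in the blocked fit. The arm too had been noted in this comparison, and no test of it is given.

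**Figure D2:**
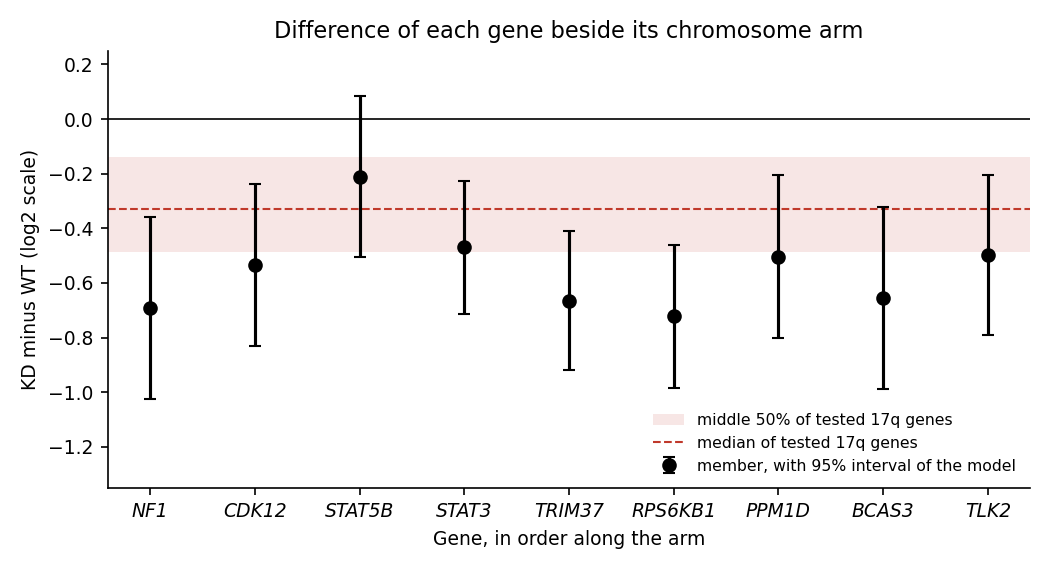
KD minus WT difference of each gene on the log2 scale with its 95% interval from the model, beside the median (dashed line, −0.33) and the middle 50% (shaded, −0.49 to −0.14) of the tested genes of the arm. STAT5B lies above the arm's median and the other 8 below it.

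Of the 9 genes 8 lay below the arm's median and STAT5B above it. RPS6KB1 lay at percentile 5.54 of the arm's tested genes, counted from the lowest difference, NF1 at 7.79, TRIM37 at 10.2 and BCAS3 at 10.7. CDK12 was at 17.6, PPM1D at 20.8, TLK2 at 23.0, STAT3 at 27.2 and STAT5B at 67.1. The arm's middle 50% ran from −0.49 to −0.14, so STAT3 and STAT5B fell inside it.

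Along the arm the medians stayed in a narrow range. In 6 consecutive blocks of 96 or 97 tested genes the median difference was −0.34, −0.37, −0.31, −0.36, −0.33 and −0.26 from centromere to telomere, and 84.4% to 93.8% of the genes in a block were lower. NF1 lies in the block nearest the centromere, CDK12 and the STAT genes in the next, and TRIM37, RPS6KB1, PPM1D, BCAS3 and TLK2 in the fourth, which spans 50862223 to 64975576. The other blocks held none of the 9. On the short arm, 210 tested genes had a median difference of 0.01, with 2 called lower and 4 called higher.

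**Figure D3:**
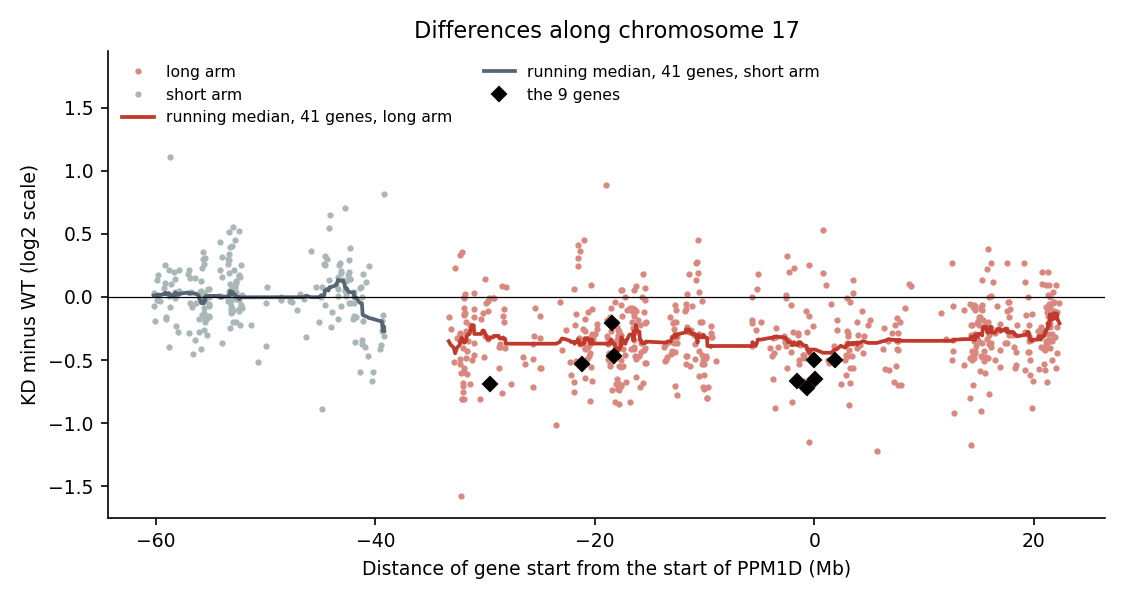
KD minus WT difference (log2 scale) of 788 tested genes of chromosome 17 against the distance of their start from that of PPM1D in Mb, with running medians over 41 genes for the long arm (red) and the short arm (grey). The long arm lies below 0 along its length, with a median of −0.33, against 0.01 on the short arm.

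The arm's median was lower in each KD library than in each WT library. Subtracting the WT mean of each gene centres the WT libraries by construction, so these values cannot tell which group changed. Relative to the WT mean of each gene, the median over the arm was −0.28, −0.36 and −0.32 in KD 1, 2 and 3, and −0.01, 0.02 and −0.02 in WT 1, 2 and 3. For the 9 genes the same medians were −0.52, −0.57 and −0.61 in KD 1, 2 and 3, and 0.07, 0.04 and −0.14 in WT 1, 2 and 3. Summed over the 9 genes, 17756 to 18830 normalised reads lay in a KD library and 27280 to 27906 in a WT library. The WT libraries differed from each other gene by gene, with WT 1 the highest of the 3 in TRIM37, RPS6KB1, PPM1D and TLK2, WT 3 in NF1, CDK12 and STAT3, and WT 2 in STAT5B and BCAS3. Among 41 chromosome arms with at least 20 tested genes, the other 40 had medians from −0.14 (4p) to 0.10 (8q).

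**Figure D4:**
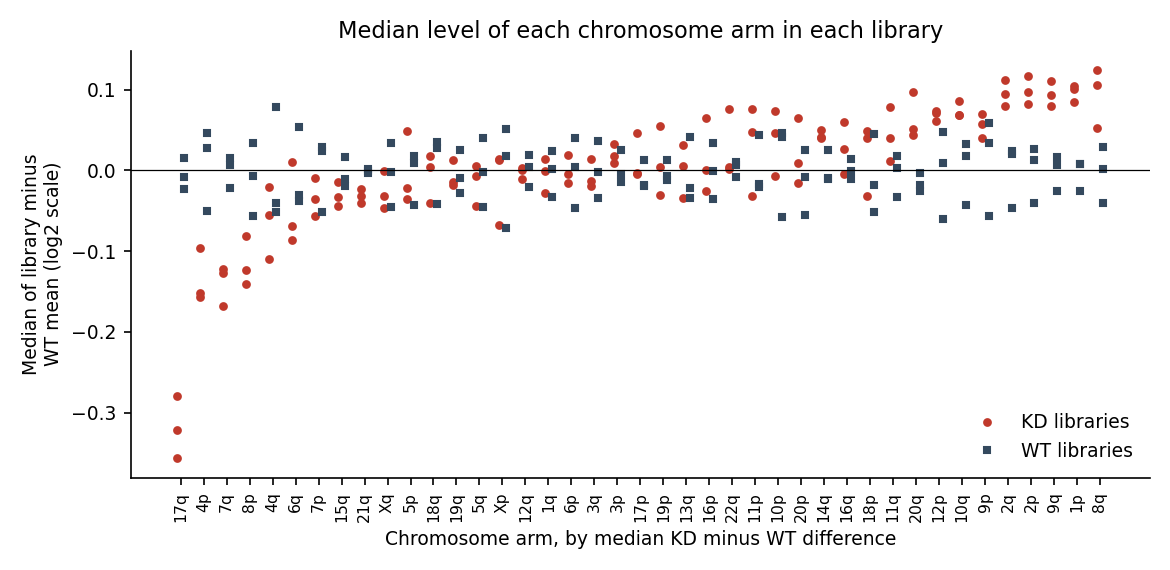
Median over the tested genes of each chromosome arm of the library value minus the WT mean (log2 scale), for the 3 KD libraries (red circles) and the 3 WT libraries (dark squares), with arms ordered by median difference. On 17q the KD libraries lie at −0.28 to −0.36 and the WT libraries at −0.02 to 0.02.

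Most immediate neighbours were lower in KD too. The tested genes on either side of the 9, leaving out the 9 themselves, were 14 genes, of which 12 were lower in KD, with a median difference of −0.21 and 6 with separate groups. Over all tested genes of the arm 88.9% were lower and 51.7% had separate groups. The lowest was GHDC beside STAT5B at −0.73 (SE 0.19), with 530 ± 154 normalised reads in KD and 935 ± 154 in WT (SD, n = 3 each). The highest was the antisense transcript TBX2-AS1 beside BCAS3 at 0.53 (SE 0.21), with 112 ± 60.7 normalised reads in KD and 51.0 ± 13.7 in WT (SD, n = 3 each). The tested genes on either side of STAT5B were thus GHDC at −0.73 and STAT3 at −0.47. Some neighbours counted as lower were near their WT level. Those of NF1, RNF135 and AK4P1, held 99.6% and 98.1% of WT, and CAVIN1 beside STAT3 held 97.3%.

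Length and level were shared features that the choice of genes did not use directly. The choice had the differences in view, and on this arm the differences went with both features. The deposited scale also understates the differences of weakly expressed genes. With the arm's tested genes split into 3 groups of nearly equal size by length, all 9 were in the longest group, with a median gene length of 103.4 kb against 18.46 kb on the arm. On the arm the median difference was −0.27 in the shortest group, −0.34 in the middle group and −0.39 in the longest group, and outside it 0.06, 0.02 and −0.03 in the same order. Of the 9, 8 lay above the median level of all tested genes, BCAS3 being the exception at percentile 36.4. By mean level, the arm's median difference was −0.25 in the lowest group, −0.34 in the middle group and −0.37 in the highest group, and outside it 0.00, 0.02 and 0.02 in the same order. The part of length and level in the differences of the 9 genes was not tested.

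Per kilobase of annotated exon, STAT3 was the most abundant, at 458 ± 5.75 normalised reads per kb in KD and 640 ± 41.4 in WT (SD, n = 3 each). In WT it was followed by PPM1D (512 ± 90.2), TRIM37 (440 ± 42.5), TLK2 (379 ± 59.8), CDK12 (304 ± 45.6), STAT5B (252 ± 42.3), NF1 (223 ± 40.98), RPS6KB1 (211 ± 8.74) and BCAS3 (34.1 ± 5.87). Each neighbouring pair in this order had overlapping ranges over the WT libraries, except RPS6KB1 and BCAS3. The length counted was the union of all exons in GENCODE 29, which is longer than any single transcript.

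Paralogs on other chromosomes, which share the protein family but not the arm, showed no common direction. None of 10 tested paralogs was called, 5 were lower and 5 higher, and their median difference was −0.03. RPS6KB2, the second S6 kinase, on 11q, averaged 1329 ± 89.8 normalised reads in KD and 1219 ± 116 in WT (SD, n = 3 each), 109.1% of WT, against 58.2% for RPS6KB1. TLK1 on 2q held 101.7% of WT, against 69.4% for TLK2. CDK13 on 7p held 92.7% of WT, against 67.8% for CDK12, and as in CDK12 every KD library lay below every WT library.

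Of the PPM1D relatives, PPM1A held 91.4% of WT, PPM1B 86.7% and PPM1G 104.3%, against 68.7% for PPM1D. RAS-inactivating proteins related to NF1 held 111.2% (RASA1) and 110.0% (RASA2) of WT, against 60.7% for NF1. The difference between each gene and its paralog was not tested, since the 9 genes were chosen from this comparison.

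**Figure D5:**
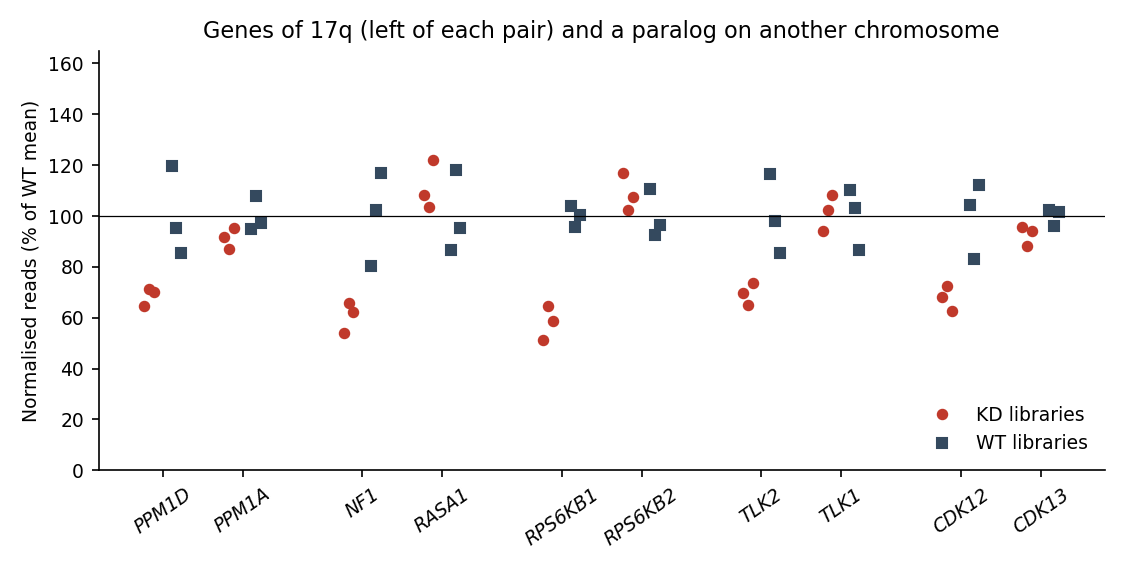
Normalised reads as a percentage of the WT mean in KD libraries (red circles) and WT libraries (dark squares), for 5 genes of 17q, each with a paralog on another chromosome to its right. RPS6KB1 in KD lies around 58.2% of WT and RPS6KB2 around 109.1%.

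Other cancer genes of the arm were lower in KD too, in 32 of 36 tested cases, with a median difference of −0.30, near that of the arm. In this list 6 fell, against a share of 15.4% over the tested genes of the arm, and none rose. The count of falls was 1 without KD 1, KD 2, KD 3 or WT 2, 4 without WT 3 and 2 in the blocked fit. PRKCA, protein kinase C alpha, fell to 637 ± 127 normalised reads in KD, against 1615 ± 212 in WT (SD, n = 3 each), 39.4% of WT (difference −1.22, SE 0.15, limma adjusted p = 0.00656). PRKAR1A, the regulatory subunit of protein kinase A and a tumour suppressor, fell to 60.3% of WT (limma, adjusted p = 0.0252), and CLTC, the clathrin heavy chain, to 62.7% (limma, adjusted p = 0.0342). PRKCA kept its call in each of 13 alternative analyses, while PRKAR1A lost it without KD 1, 2 or 3 and without WT 2 (limma, adjusted p = 0.109, 0.0811, 0.0807 and 0.0586), and CLTC lost it without the same libraries (0.128, 0.101, 0.153 and 0.0909) and with the replicate block (0.0949). LASP1, RARA and VMP1, named after their values were seen, also fell.

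MLLT6, a fusion partner in leukaemia, had the second lowest difference in that list, −0.75 (SE 0.38), with 42.9 ± 7.59 normalised reads in KD and 164 ± 186 in WT (SD, n = 3 each), and was not called (adjusted p = 0.272 by limma). That value rested on WT 3, with 379 normalised reads against 61.5 in WT 1 and 52.3 in WT 2, and the difference was −0.18 without WT 3. At the other end SRSF2, a splicing factor, held 100.8% of WT, MAP2K6, a p38 kinase activator, 105.4%, BRIP1, a helicase of DNA repair, 107.7%, and TBX2, a repressor of cell cycle inhibitors, 120.8%. None of these 4 passed the test, and their groups overlapped.

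Among genes that act with the 9 in the same pathways, calls lower were not above their share of 2.32% over all tested genes. Across 7 pathway lists with 100 different tested genes, 1 gene fell, 43 were lower on average and the median difference was 0.04. Of these genes 3 lie on the same arm (RPTOR, HEXIM1 and SOCS3) and were lower, and of the other 97 genes 40 were lower. The gene that fell was RPTOR, the subunit of mTORC1 that recruits S6 kinase, which had 1472 ± 137 normalised reads in KD and 2389 ± 120 in WT (SD, n = 3 each), 61.6% of WT (difference −0.66, SE 0.11, limma adjusted p = 0.0154). It lost its call without KD 1, 2 or 3 (limma, adjusted p = 0.0552, 0.0604 and 0.0831). The S6 kinase list of 17 genes had 1 fall, no rise and a median of −0.05.

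The DNA damage list around PPM1D had 11 of 12 tested genes higher on average in KD, with no fall and a median of 0.31, against a median of 0.01 over all tested genes. The centriole list around TRIM37, which shares some of its genes, had 11 of 12 higher, no fall and a median of 0.11.

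No gene was called in the lists around NF1, the STAT genes, TLK2 and CDK12. The RAS list of 20 tested genes had 11 lower and a median of −0.02. Its largest difference was that of SPRED3, a partner of NF1 in RAS inhibition, at −0.55 (SE 0.17, limma adjusted p = 0.0960). SPRED3 was weakly expressed, with 24.3 ± 11.8 normalised reads in KD and 63.1 ± 19.4 in WT (SD, n = 3 each), near the filter level of 27.6. The JAK-STAT list of 19 had 9 lower and a median of 0.04. Its largest difference was that of IL6ST, the receptor subunit gp130 that activates STAT3, with 841 ± 72.7 normalised reads in KD and 1254 ± 278 in WT (SD, n = 3 each; −0.51, SE 0.15, limma adjusted p = 0.0920, and 0.0387 without WT 1). The histone supply list around TLK2 had 5 of 10 lower and a median of 0.00, with NASP, a histone chaperone, at 0.50 (SE 0.25, limma adjusted p = 0.263, and 0.0193 without WT 1). The elongation list around CDK12 had 8 of 12 lower and a median of −0.05, with HEXIM1, an inhibitor of the elongation kinase CDK9 and itself a gene of the arm, at −0.53 (SE 0.17, limma adjusted p = 0.115).

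Across the 6 libraries, the genes whose profile was most like the mean profile of the 9 were DGKE, a diacylglycerol kinase of the same arm (Pearson r = 0.998), C15orf41 on 15q (0.998), PIEZO2, a mechanosensitive channel, on 18p (0.994), EPN2, an epsin of endocytosis, on 17p (0.993) and ATP11A, a phospholipid flippase, on 13q (0.993). DGKE averaged 612 ± 13.1 normalised reads in KD and 1021 ± 38.5 in WT (SD, n = 3 each), 59.9% of WT. Of the 100 most alike genes 25 were on the arm. Among the arm's other 569 tested genes 88.2% had a positive r, with a median of 0.74, against 47.5% and a median of −0.05 among the tested genes outside it. All these profiles rest on the same 6 libraries and on the difference between the groups that chose the 9 genes, so they are a description.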

How the data were processed

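Total RNA of 6 libraries was sequenced. The submitters' processing notes name build GRCh38 and, with no roles, STAR, DESeq, CASAVA 1.8.2, MultiQC, FastQC and Trim Galore. No source used here names the read counter, its annotation, any filter or whether strand was used. The authors deposited log2-like values, normalised per library and variance-stabilised. Columns headed as knockdown were matched to the labels, and the other 3, whose heading the labels do not explain, were taken as WT by elimination. Their numbering follows the headings. No column was without a library.

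The stabilising function was inverted with the offset 55.2 (lowest value 5.79), and 100% of values were then whole numbers of reads (tolerance 0.01). These gave depths, normalised reads, means ± SD and percentages of WT. Rows with a mean at least 1 above the lowest value (27.6 normalised reads) were kept, 13558 of 31785. Differences came from limma 3.58.1 in R 4.3.3 (empirical Bayes with trend, two-sided), with Benjamini-Hochberg adjustment over all kept rows and calls below 0.05. With 3 libraries a group, exact permutation p-values stop at 0.1. The fit was tested on simulated data. Positions and arms are from GENCODE 29 on GRCh38, matched by gene name or Ensembl ID. Promoters are from RefSeq (GRCh38.p14).

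The 9 genes and all lists were chosen with earlier results of these data known. Named by rule are MSI1, the 9 genes, tested paralogs, the 4 lowest and 4 highest other cancer genes of the arm, up to 2 called genes per pathway list (otherwise the largest difference), 5 genes of like profile and extreme neighbours. Of the cancer genes listed, 39 of 41 were in the table and 36 were tested. Alternatives were other filters, scalings and log scales, limma voom on recovered reads, the replicate number as a block, and leaving out each library in turn. Same-numbered libraries did not deviate together. Some listed genes, and calls higher in the pathway lists, are not reported here. Centromere positions that split the arms are approximate and from general knowledge.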

Additional observations from a re-analysis of the deposited data

How the results depend on the processing

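All 9 genes stayed lower in KD in each of 13 alternatives, and their median difference ranged from −0.60 to −0.52. The median of the arm was negative in all 13 but depended on the scale. It was −0.13 with no filter on low values, which adds rows near the lowest value of the scale, −0.35 with libraries centred on genes outside the arm, −0.40 on log2(normalised reads + 1), −0.41 with voom, and −0.34 to −0.30 with a library left out.

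Counts of calls rested on single libraries. With a library left out, all calls ranged from 56 to 726 (556 as reported), calls higher from 25 to 329 (242), calls lower from 31 to 397 (314), calls lower on the arm from 5 to 97 (89), calls in all fixed lists together from 1 to 20 (14) and calls among the 9 genes from 0 to 5 (5). Each of these fits has fewer samples. The replicate number as a block gave 221 calls, 101 higher and 120 lower, 31 on the arm, 6 in the lists and 3 among the 9 genes. Deviations of same-numbered libraries correlated at −0.005, −0.253 and 0.005 for numbers 1, 2 and 3, against −0.144 to 0.18 for libraries of different number. No pairing by number was seen, though 3 libraries a group are too few to exclude one. Of the other 932 values for lists and single genes, 855 kept their call or moved by less than the spread of replicates. Of the remaining values 40 moved, 35 lost a call, 2 gained a call and none reversed. Each of the 9 genes was judged here by its difference alone. Their own lost or gained calls are therefore not among the 35 and the 2, and show only in the counts of calls above.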

Other observations

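The short arm of chromosome 17 was not even along its length. In 6 blocks of 35 tested genes, formed after the plot along the chromosome had been seen, the median difference was 0.03, −0.07, 0.04, −0.02 and 0.13 from the telomere inwards, and −0.14 in the block nearest the centromere. In that block, from LLGL1 to C17orf51 at 18225587 to 21574517, 23 of 35 genes were lower in KD. It holds EPN2, which averaged 994 ± 29.4 normalised reads in KD and 1561 ± 113 in WT (SD, n = 3 each), 63.7% of WT.

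Other chromosome arms moved less, in either direction. The KD medians of 4p, 7q, 8p and 21q lay below every WT library, as on 17q, and those of 14q, 20q, 12p, 10q, 2q, 2p, 9q, 1p and 8q lay above. On 7q the medians were −0.12, −0.17 and −0.13 in KD 1, 2 and 3, and 0.02, 0.01 and −0.02 in WT 1, 2 and 3, and 74.4% of 434 tested genes were lower. On 1p the medians were 0.11, 0.10 and 0.09 in KD 1, 2 and 3, and 0.01, 0.01 and −0.03 in WT 1, 2 and 3, and 34.5% of 801 tested genes were lower. The cause of these shifts was not tested.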
